A study of Mus musculus with 7 samples.

Results

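The genes of 3 AMPA receptor subunits, Gria1, Gria2 and Gria4, were described by the binding of Fos around them. They are 3 of 21883 protein-coding genes in the RefSeq gene table of GRCm38.p6, and the peaks described are those that overlapped a gene's span or the 10 kb on either side of it. Together the 3 windows cover 879.8 kb. They held 28, 93 and 62 of the 15009, 63197 and 29650 peaks of kainic acid replicates 1, 2 and 3. They held 0, 2 and 0 of the 7, 3277 and 2 peaks of saline replicates 1, 2 and 3.

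The data came from chromatin immunoprecipitation sequencing (ChIP-seq) of mouse hippocampus with an antibody against Fos. All mice were wild-type C57BL/6J, 2 months old. One group of 3 libraries came from mice given saline (PBS). The other 3 libraries came from mice injected into the peritoneum with kainic acid, a glutamate receptor agonist that provokes seizures, in 2 doses of 10 mg/kg given 30 min apart. These mice had seizures of level 4 and were killed 1 hour after the first dose. A library of input chromatin from saline mice has no peak list here. The number of animals behind a library, and whether libraries came from separate animals, is not stated in the labels, so p-values measure only the spread between these libraries, which may be technical. Only animals that reached that seizure level entered the kainic acid group. Bulk tissue mixes neurons and glia, so a site bound in few cells cannot be told apart from a site bound weakly in many. The lists hold no RNA, so neither the tissue label nor the expression of the genes could be checked.

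AMPA receptors are glutamate-gated ion channels that carry most fast excitatory transmission in the hippocampus. They are tetramers of GluA subunits. Gria1 encodes GluA1, which is abundant in pyramidal neurons and is moved into and out of synapses during plasticity. Gria2 encodes GluA2, whose RNA is edited so that receptors containing it pass little calcium. Gria4 encodes GluA4, which in the adult hippocampus is known mainly from interneurons. The Fos gene is transcribed within minutes of strong activity. Its protein binds DNA as a dimer with a Jun protein, the AP-1 factor, typically at the sequence TGANTCA, where N is any base.

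The RefSeq promoter table (GRCm38.p6) matched 2 of the 3 genes, Gria2 and Gria4. The bases before their starts are shown because no list had a peak in them, although Gria2 carried many peaks further inside. The nearest of these, in kainic acid replicate 2 alone, lay 53 bp downstream of the Gria2 start. Each sequence is the 250 bases before the annotated start on the minus strand, at chr3:80802836-80803085 for Gria2 and chr9:4796235-4796484 for Gria4, written 5′ to 3′. Capitals would mark TGANTCA or the cyclic AMP response element TGACGTCA. Both motifs read the same on either strand, and neither occurs in these windows.

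Gria2: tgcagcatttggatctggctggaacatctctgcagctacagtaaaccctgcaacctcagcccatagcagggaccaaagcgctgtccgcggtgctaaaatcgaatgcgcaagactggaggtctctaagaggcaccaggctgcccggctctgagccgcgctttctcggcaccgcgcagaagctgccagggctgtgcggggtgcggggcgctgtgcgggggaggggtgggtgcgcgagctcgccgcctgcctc

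Gria4: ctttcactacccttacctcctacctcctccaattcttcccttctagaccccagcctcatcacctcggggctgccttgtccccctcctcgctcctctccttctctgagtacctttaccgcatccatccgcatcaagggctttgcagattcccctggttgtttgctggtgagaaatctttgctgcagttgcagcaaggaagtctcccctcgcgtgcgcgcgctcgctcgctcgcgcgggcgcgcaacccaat

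Of 32851 promoter windows of this length in the table, 6.75% hold TGANTCA and 1.55% hold TGACGTCA. The Gria2 window is 64.8% G and C with 19 CpG dinucleotides, and the Gria4 window is 58.8% G and C with 16. The absence of a match says only that these letters are not in these 250 bases.

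More peaks were called over Gria1 and Gria2 in each kainic acid list than in any saline list, and few over Gria4 in either group. The kainic acid lists are also far longer. As a share of its own list, Gria1 held 0.113%, 0.114% and 0.152% of the peaks of kainic acid replicates 1, 2 and 3, and 0.0610% of those of saline replicate 2, the only saline list of any length. Gria1 (chromosome 11, 57011571 to 57330244) had 17, 72 and 45 peaks in kainic acid replicates 1, 2 and 3, and 0, 2 and 0 in the saline replicates. The 3 kainic acid values differ widely among themselves, but the lowest of them is well above the highest saline value. Kainic acid lists averaged 44.7 ± 27.5 peaks (SD, n = 3) against 0.667 ± 1.15 (SD, n = 3). A two-sided exact permutation test of this difference had p = 0.1, or 0.133 after Benjamini-Hochberg adjustment over 4 comparisons. Gria2 (chromosome 3, 80681450 to 80804227) had 11, 19 and 15 peaks with kainic acid and none in any saline list. Its kainic acid values lay closer together, with a mean of 15.0 ± 4.0 (SD, n = 3), and the exact permutation test again gave p = 0.1 (adjusted 0.133).

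Gria4 (chromosome 9, 4417893 to 4796234) is the longest of the 3 genes, yet it had 0, 2 and 2 peaks with kainic acid and none with saline. Its groups overlapped, since kainic acid replicate 1 was at 0 like the saline lists, and the exact permutation test gave p = 0.4 (adjusted 0.4). Summed over the 3 genes, kainic acid lists held 61.0 ± 32.5 peaks (SD, n = 3) and saline lists 0.667 ± 1.15 (SD, n = 3). The difference was 60.3 (exact permutation p = 0.1, adjusted 0.133). With 3 libraries against 3, the smallest value this exact permutation test can give is p = 0.1, so none of these comparisons could reach 0.05.

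Gria1 and Gria2 thus had more peaks in every kainic acid list than in any saline list, and Gria4 did not. That was true of 20.7% of the 21883 protein-coding genes and of 62.4% of the 2428 whose span is at least 100 kb, called long genes here. Separation of the groups by itself is therefore common among genes of this length. Saline replicates 1 and 3 hold only 7 and 2 peaks genome-wide, and the part of list length in the separation was not tested.

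**Figure D1:**
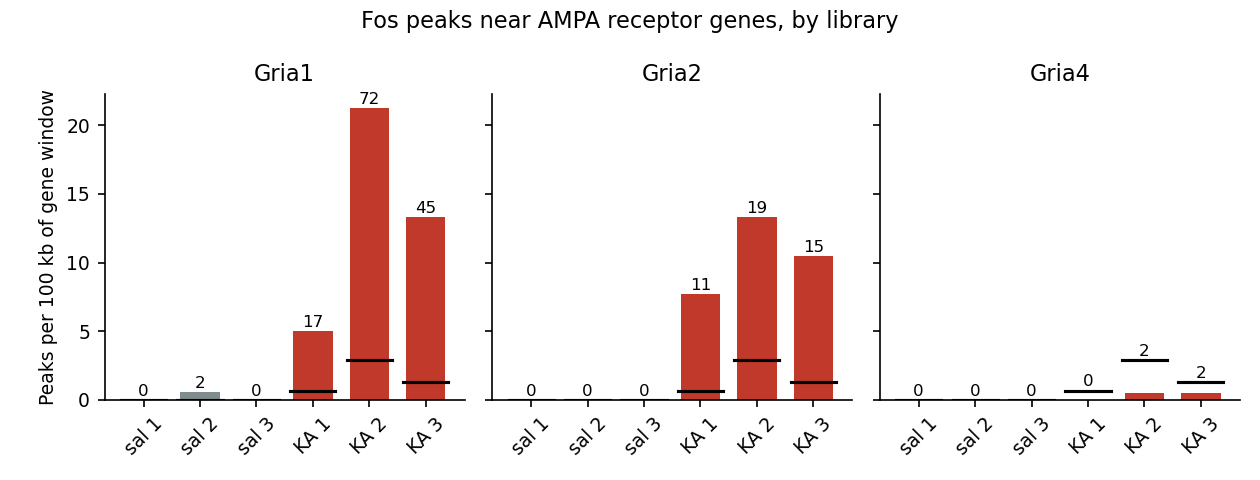
Peaks per 100 kb of gene window (gene span with 10 kb on each side) in the 3 saline (sal, grey) and 3 kainic acid (KA, red) libraries; numbers above bars are peak counts and black lines mark the median of the 2428 long genes in that library. Gria1 and Gria2 stand above the line in each kainic acid library, and Gria4 stands below it in each.

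Set against gene length, Gria1 and Gria2 were among the most densely marked long genes in each kainic acid library by itself. Gria1 had 5.02, 21.3 and 13.3 peaks per 100 kb in kainic acid replicates 1, 2 and 3, where the median long gene had 0.678, 2.91 and 1.31. By this density Gria1 was 36th, 17th and 7th of 2428. Gria2 had 7.70, 13.3 and 10.5 peaks per 100 kb and was 10th, 106th and 22nd. In replicate 1, the shortest list, Gria2 was thus denser than Gria1, and in replicates 2 and 3 it was the reverse. Gria4 had 0, 0.502 and 0.502 peaks per 100 kb, below the median in all 3. In these lists 30.7%, 7.87% and 17.8% of long genes had no peak at all.

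Overlapping peaks of the 6 lists (1 bp or more) were next joined into regions, and those called in 2 or 3 of the kainic acid libraries were kept as reproduced regions. The 3 windows held 49 reproduced regions, of which 37 belonged to Gria1, 10 to Gria2 and 2 to Gria4. These were 49 of the 103 joined regions with any kainic acid peak, or 47.6% (95% exact interval 37.6 to 57.6), against 40.3% over the genome. Having at least 1 reproduced region was common, at 40% of all protein-coding genes and 81.6% of long genes, so the number and density carry the description. Gria1 had 10.9 regions per 100 kb, the 12th highest of the 2428 long genes, and Gria2 had 7.0, the 67th highest. The median long gene had 1.21, and 90% of long genes had no more than 4.41. Gria4 had 0.502, which is higher than 26.6% of long genes.

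Regions were denser in Gria1 and Gria2 than beside them. In the 200 kb beyond each side of the window there were 4 regions on either side of Gria1 and 4 on either side of Gria2, or 2.00 per 100 kb in each flank. On the lower-coordinate side neither flank overlapped a protein-coding gene. The upper flank of Gria1 overlapped Fam114a2 and Mfap3, and that of Gria2 overlapped Glrb and Gm29808. Gria4 lay in a stretch with no region in either flank. The flanks were compared after the counts in the genes had been seen, and this difference was not tested.

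**Figure D2:**
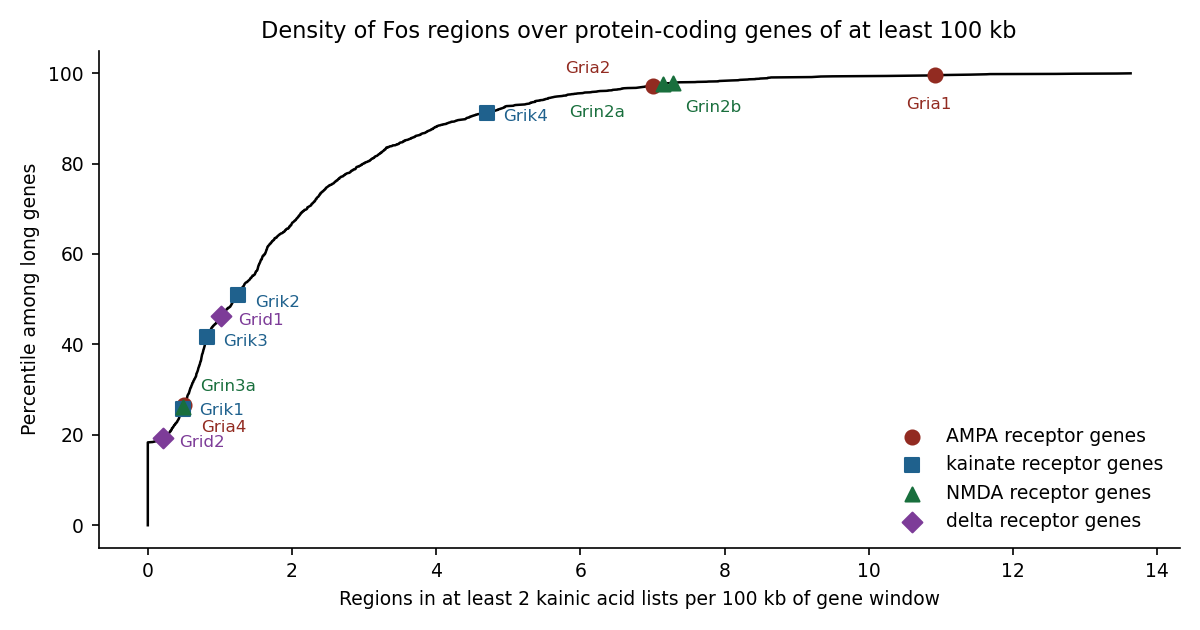
Percentile of each gene among the 2428 long genes (vertical axis) against reproduced regions, those in 2 or 3 kainic acid lists, per 100 kb of window (horizontal axis); the line is all long genes and the symbols are ionotropic glutamate receptor genes of at least 100 kb. Gria1 at 10.9 and Gria2 at 7.0 lie near the top with Grin2a and Grin2b, while Gria4 at 0.502 lies beside Grik1 and Grin3a.

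Of all joined regions with a kainic acid peak, 47.4% were reproduced at Gria1 and 43.5% at Gria2, near the genome share of 40.3%. Of the 37 Gria1 regions, 14 were in all 3 kainic acid lists, or 37.8% (95% exact Clopper-Pearson bounds 22.5 and 55.2). Of the 10 Gria2 regions, 8 were in all 3, which is 80% (44.4 to 97.5). Over the genome 44.4% of the 26862 reproduced regions were in all 3, which lies inside the interval of Gria1 and at the lower bound of that of Gria2. The intervals of both genes overlap, and the difference between them was not tested. These intervals cover counting error only, and neighbouring regions of a gene share their libraries. Gria4 had no region in all 3 lists. For the 3 genes together it was 22 of 49, or 44.9% (30.7 to 59.8), close to the genome share.

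The regions missing from a list were mostly missing from replicate 1, whose list is shortest. At Gria1, 21 regions were shared by replicates 2 and 3 alone, 2 by replicates 1 and 2 alone, and none by replicates 1 and 3 alone. Of the 17 Gria1 regions with a peak of replicate 1, 16 had one of replicate 2 and 14 one of replicate 3. Another 41 Gria1 regions had a peak in 1 kainic acid list only, 32 of them in replicate 2. At Gria2, 13 regions were in 1 list only, 7 of them in replicate 2, 4 in replicate 3 and 2 in replicate 1. Regions seen in 1 list ranked lower: their median percentile rank of fold was 67.7 at Gria1 and 75.5 at Gria2, on a scale where 0 is the top of the list. Gria1 regions in all 3 lists had a median of 33.4 and those in exactly 2 a median of 54.5. At Gria2 the regions in all 3 lists had a median of 55.7. The 2 Gria2 regions in exactly 2 lists had a median of 74.6, close to that of its regions in 1 list.

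The count of regions rested on the longer lists. Without kainic acid replicate 2 the total fell from 49 to 22 regions, and without replicate 3 it fell to 24. In both cases Gria2 kept 8 regions, Gria4 had none, and Gria1 had 14 and 16. The order of Gria1 and Gria2 by density then turned. Without replicate 2, Gria1 had 4.13 regions per 100 kb and Gria2 had 5.60, and without replicate 3 they had 4.72 and 5.60. Among long genes counted the same way, Gria1 moved from 12th to 37th and 32nd, and Gria2 from 67th to 15th and 19th. Requiring all 3 lists likewise put Gria2, at 5.60, above Gria1, at 4.13.

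The Gria1 regions were spread along the whole gene. All 37 overlapped the gene span, and none lay only in the 10 kb on either side. Divided into 3 equal parts from low to high coordinates, the span held 15, 12 and 9 regions by midpoint. The midpoint of 1 more lay just outside its lower end. The median distance between neighbouring midpoints was 7.53 kb and the longest was 24.8 kb. The regions had a median width of 736 bp and covered 8.39% of the window. The 10 Gria2 regions were spaced at a median of 6.49 kb, with the longest gap at 27.6 kb, and covered 5.13% of its window. The 2 Gria4 regions lay 23.9 kb apart in the middle of the gene and covered 0.337%. The gene table gives no exons, so whether a region is exonic or intronic was not analysed here.

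**Figure D3:**
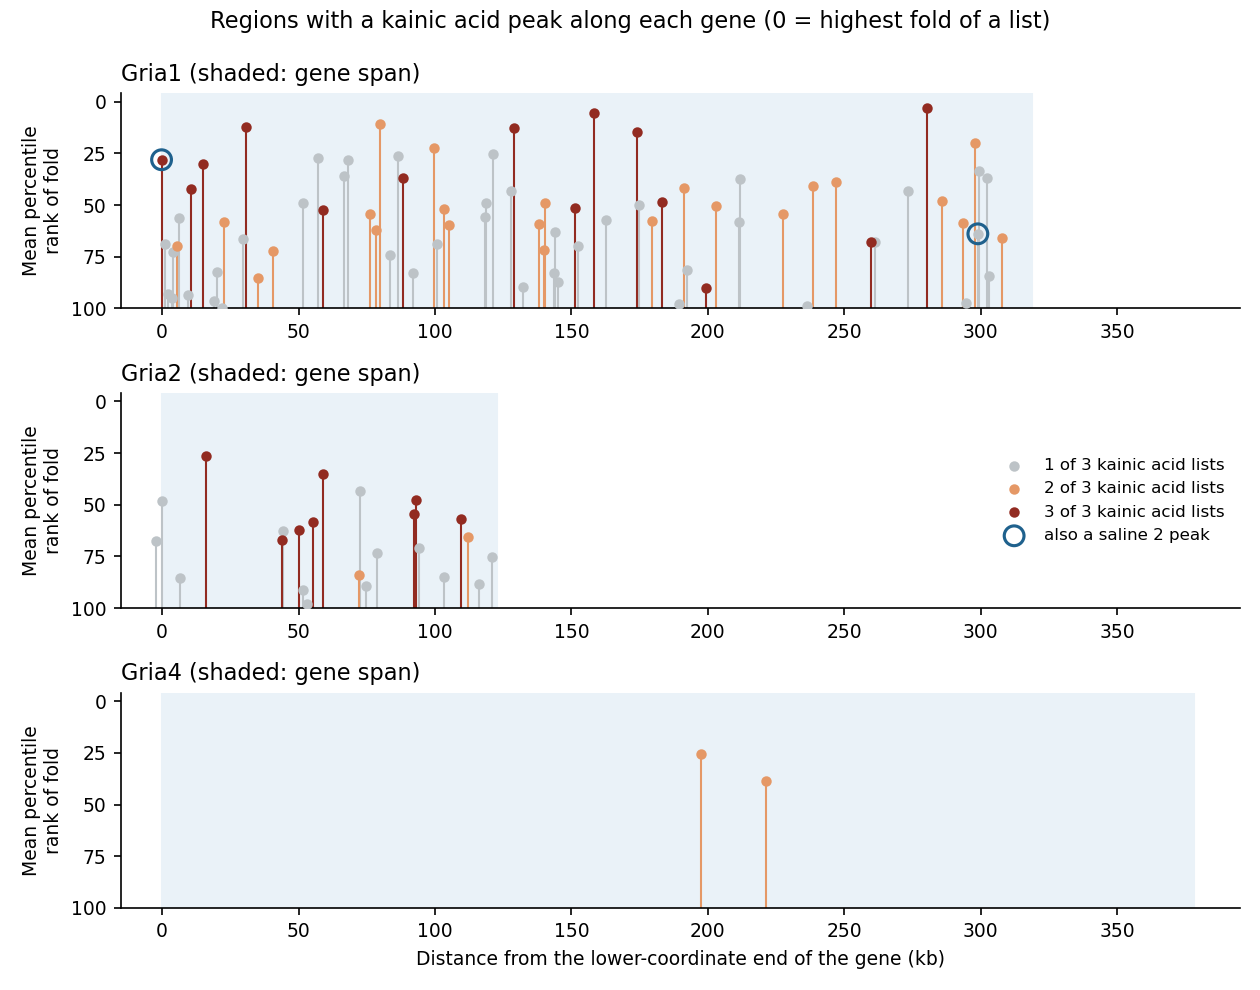
Each stem is a region called in 1, 2 or 3 kainic acid lists, placed by its distance from the lower-coordinate end of the gene (kb) and rising to its mean percentile rank of fold over the lists that hold it (0 is the top of a list); colours give the number of kainic acid lists, circles mark regions that also have a peak of saline replicate 2, and shading marks the gene span. Gria1 carries regions along its full length, Gria2 has 8 regions in all 3 lists, and Gria4 has 2 regions near its middle.

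The deposited fold of a peak is a ratio over local background on the scale of its own list, so regions were described by the rank of their fold within each list. The rank of the best region differed between the genes. It is the best of 37, 10 and 2 regions at Gria1, Gria2 and Gria4. With more regions the best tends to stand nearer the top, and a difference beyond this was not tested. The best Gria1 region, at chromosome 11, 57291651 to 57292507, had folds of 9.36, 11.1 and 9.53 in the 3 kainic acid lists, in replicate order. These folds stood in the top 4% of each list, at percentile ranks of 2.36, 3.85 and 2.21, with a mean of 2.81 ± 0.911 (SD, n = 3). The pileup at its summit, recovered from the deposited fold and p-value, was 38, 40 and 47 reads, over a local background of 3.17, 2.71 and 4.03. Ranked by −log10 q its mean was 4.34, and ranked by fold only among regions in all 3 lists it was 8.83 ± 8.36 (SD, n = 3). By mean percentile rank it stood 520th of the 26862 regions, and its 3 summits lay within 85 bp of each other.

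The next Gria1 region lay near the middle of the gene, at 57169304 to 57170395. Its folds were 7.26, 11.6 and 7.62, its percentile ranks 7.53, 3.32 and 5.72, and its pileups 34, 49 and 50 reads. The region at 57091098 to 57091738 had folds of 9.18 and 5.92 in replicates 2 and 3 and no peak in replicate 1. The regions at 57041814 to 57042507 and 57139987 to 57140982 were in all 3 lists, with mean percentile ranks of 12.0 ± 2.31 and 12.5 ± 2.77 (SD, n = 3). All 5 were chosen by their mean rank. Most Gria1 sites were not of this strength: the mean percentile ranks of the 37 regions had a median of 50.7 and ran from 2.81 to 89.9. These ranks are among all peaks of a list, including peaks seen in 1 list only. Among the 26862 reproduced regions, the Gria1 region at this median stood 17092nd by mean percentile rank.

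The regions of Gria2 ranked lower than the best of Gria1. Its best region, at chromosome 3, 80697250 to 80698160, had folds of 4.66, 7.18 and 5.16 and percentile ranks of 40.6, 14.7 and 23.9 (mean 26.4 ± 13.2, SD, n = 3). Ranked only among regions in all 3 lists its mean was 49.1. The pileups there were 21, 29 and 29 reads. The region at 80740287 to 80740858 had folds of 6.16, 5.82 and 3.58, and percentile ranks of 14.6, 25.2 and 65.6. It was the best Gria2 site of replicate 1, a weak one of replicate 3, and the best by mean rank without replicate 3. The other 3 of its best 5 regions, at 80774182 to 80774864, 80773310 to 80774133 and 80790538 to 80791468, had mean percentile ranks of 47.6, 54.6 and 56.8. No Gria2 peak was in the top 10% of any list, where 10% would be the share of an average gene. At Gria1 it was 3 of 17, 5 of 72 and 3 of 45 peaks, or 17.6%, 6.94% and 6.67%, so Gria1 was above that share in replicate 1 alone.

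In each kainic acid list the peaks of Gria2 ranked, at the median, below the middle of the list, at percentiles of 68.8, 62.6 and 70.8. The medians of Gria1 were 60.5, 49.6 and 52.2. The best Gria2 peak of each list stood at 14.6, 14.7 and 23.9.

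The 2 Gria4 regions ranked higher by fold in replicate 2 than in replicate 3, with mean percentile ranks of 25.7 and 38.6 over these lists. At chromosome 9, 4615154 to 4615728, the folds were 7.29 and 4.37, at percentile ranks of 13.9 and 37.5, with pileups of 26 and 21 reads. At 4639000 to 4639765 the folds were 7.20 and 3.68, at ranks of 14.5 and 62.7. The pileup there was 54 reads over a background of 6.64 in replicate 2, and 31 over 7.69 in replicate 3. By −log10 q this second region ranked first of the 2. Replicate 1 had no peak in the whole window. A peak that was not called is not the same as an unbound site.

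**Figure D4:**
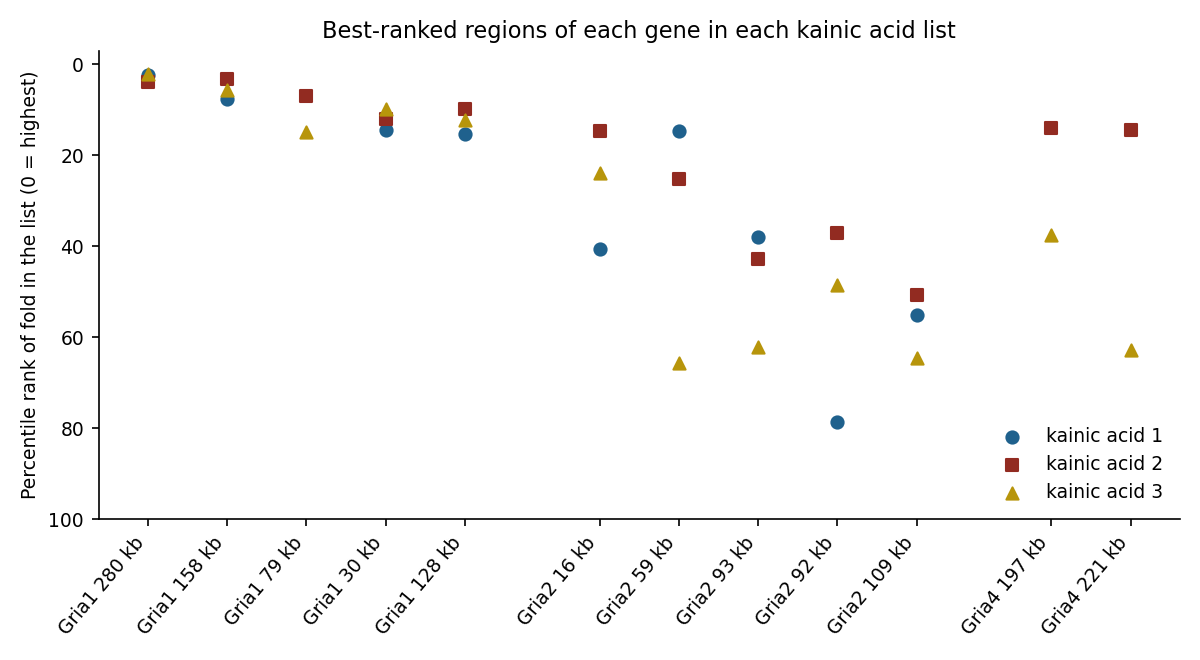
Percentile rank of fold (vertical axis, 0 is the highest of the list) in each kainic acid list for the 5 best-ranked regions of Gria1 and Gria2 and both regions of Gria4, named by distance from the lower-coordinate end of the gene. The best Gria1 region sits between 2.21 and 3.85 in all 3 lists; it was chosen for a low mean rank, which leaves little room for spread. The Gria2 and Gria4 regions shown spread more between lists and have no point for a list without a peak. Gria1 regions not shown can spread as widely, such as that at 57021810 to 57022792 (SD 39.4, n = 3).

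At the gene ends the genes differed as well. A Gria1 region of 1648 bp, at 57010552 to 57012199, crossed the lower-coordinate end of the gene and was in all 3 kainic acid lists and in saline replicate 2. Its folds were 5.45, 8.79 and 3.92 with kainic acid and 4.87 in saline replicate 2. The pileups were 22, 37 and 20 reads with kainic acid and 15 reads in the saline library. The 3 kainic acid summits lay within 122 bp of each other, at 57010949, 57010827 and 57010931, and the saline summit was at 57010887, between them. All of these summits lay outside the gene span, which starts at 57011571. Of the 49 reproduced regions only this one had a saline peak, so 48 of 49, or 98% (95% Clopper-Pearson interval 89.1 to 99.9), had none. Over the genome 98% of regions had no saline peak, so the share at these genes is that of the background.

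The other saline peak, also of replicate 2, fell at 57310329 to 57310833 near the upper end of Gria1, with a fold of 3.05 and 15 reads. Of the kainic acid lists only replicate 2 had a peak there, with a fold of 3.98 and 14 reads. Both saline peaks are thus in the Gria1 window, though the one at the lower end lay outside the gene span. Of the 2, 1 is at a reproduced region. Of all 3277 peaks of saline replicate 2, 17.0% are at one. Pileups are not scaled between libraries, so these reads were not compared between groups.

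At Gria2 the site nearest the annotated start was a peak of kainic acid replicate 2 alone, at 80802305 to 80802782. Its near edge was 53 bp downstream of that start and 1445 bp from the upper end of the gene span, which reaches past the start and takes in the promoter sequence given above. It had a fold of 3.68 and 21 reads. The nearest reproduced region was 8916 bp away. At Gria4 the nearest peak of any list was 156469 bp from the start.

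Other ionotropic glutamate receptor genes also varied widely in density. Among NMDA receptor genes, Grin2a and Grin2b, which encode the main GluN2 subunits of the adult forebrain, had 32 and 35 regions, or 7.14 and 7.29 per 100 kb, like Gria2. Grin3a had 1 region, or 0.489 per 100 kb, like Gria4. A region was present at 5 of 7 NMDA receptor genes, 5 of 5 kainate receptor genes and 2 of 2 delta receptor genes, against 40% of all protein-coding genes and 81.6% of long ones. The densest kainate receptor gene was Grik4 with 21 regions, or 4.70 per 100 kb. Gria1, at 10.9, was denser than each of these 14 kainate, NMDA and delta receptor genes. These differences between single genes were not tested.

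Genes whose products assemble, traffic, anchor or otherwise act on AMPA receptors or their RNA were counted as a list of 26. It takes in the TARP auxiliary subunits (Cacng genes), cornichons, Shisa proteins and scaffold proteins, and 21 of the 26 (80.8%) had a region, against 40% of all protein-coding genes. Among the 11 long genes of the list it was 11 of 11, against 81.6% of long genes, and their median density was 2.71 regions per 100 kb, against 1.21. In 16 of 26 every kainic acid list had more peaks than any saline list, against 20.7% of protein-coding genes. In 10 of the 11 long ones this held, against 62.4% of long genes.

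The most regions were at Nsf, whose ATPase binds GluA2, and at Grip1, a scaffold that binds GluA2, with 13 each. In density they differed, at 8.54 per 100 kb for Nsf and 1.99 for Grip1, which is a much longer gene. Dlg1, which encodes the GluA1-binding scaffold SAP97, had 9 regions. Shisa9 had 8, and Cnih3, a cornichon gene, and Shisa6 had 7 each. The 5 genes with none were Shisa7, Frrs1l, Cpt1c, Pick1 and Akap5, whose spans are short, from 9.90 to 30.3 kb. Other genes of the list with spans as short did have regions.

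Genes most alike in their peaks per 100 kb over all 6 lists were taken from the 2428 long genes by the summed absolute difference. For Gria1 they were Dclk1 (a summed difference of 4.33 peaks per 100 kb), Gfod1 (5.56) and Vcl (6.10). Dclk1, with 19, 73 and 39 peaks in kainic acid replicates 1, 2 and 3, came close to the 17, 72 and 45 of Gria1 at a like length. For Gria2 the closest were Nsf (2.94), Slc7a14 (3.33) and Ppm1e (4.27). Nsf had 10, 22 and 17 peaks, beside the 11, 19 and 15 of Gria2. For Gria4 they were Syt9, Dock5 and Zfp618, each with 0, 1 and 1 peaks.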

How the data were processed

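Of 7 libraries, 6 had a peak list, 1 per library and none pooled. Per the submitters' processing notes, Trim Galore 0.6.4, Bowtie2 2.3.4.3, MACS2 and deepTools 3.5.0 were used with build mm10. Peak names in the deposited files add a mapping quality of 30. The calling cutoff and control library are not given in the sources used here. The authors' deposited columns are a fold (a linear ratio over local background), a −log10 p and a −log10 q, all within 1 library, a score equal to 10 times the −log10 q, rounded down, and a summit offset. Library depth is unknown here. The pileup k and background λ at a summit were solved from fold = (k + 1)/(λ + 1) and the deposited p as a Poisson upper tail beyond k, and 176 of 176 summits near the genes were solved within 0.001 in −log10 p. This relation was inferred from the values.

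Peaks were assigned by 1 bp overlap with the RefSeq span (GRCm38.p6) and 10 kb on each side. Peaks per list were compared by a two-sided exact permutation test over 20 assignments. Scripts ran in Python 3.11.15 with scipy 1.17.1 and were tested on simulated data. Named regions are the 5 of best mean rank per gene, any with a saline peak and the nearest to a start. Named genes of the receptor-associated list are the 5 with most regions (ties by density, with a tied gene also named) and those with none. The genes, lists and tests were chosen with earlier results of these data known.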

Additional observations from a re-analysis of the deposited data

How the results depend on the processing

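The difference in peaks per list near the 3 genes stayed positive under all alternatives run. The saline lists held only 0, 2 and 0 peaks there, and no alternative cut the kainic acid lists to a saline length. The sign could therefore hardly turn and says little about stability. Counted in peaks, the difference ran from 13.7 with −log10 q of at least 10 to 76.8 without kainic acid replicate 1. In other units it was 5.27 on log2(peaks + 1) and 28.1 kb of length covered. Since its exact permutation test cannot pass 0.05, its p says nothing about stability. Both groups number their libraries 1 to 3, but no label ties a number to a common day, litter or batch. Under the replicate block the difference stayed at 60.3 (exact permutation of signs, p = 0.25, the smallest that 3 pairs allow). Deviations of same-numbered libraries over long genes correlated at 0.214, 0.206 and −0.0262, but almost every saline peak is from replicate 2, and these values therefore follow from centring and show nothing about pairing.

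The number of regions (49) and their density (5.57 per 100 kb) moved to 27 and 3.07 for peaks of −log10 q 5 or more. For peaks of 10 or more they were 10 and 1.14. They moved to 22 and 2.50 when all 3 kainic acid lists were required, to 103 and 11.7 with any list, and to 20 and 2.27 with kainic acid lists of equal length. With 1 kainic acid library left out there were 22 to 47 regions, or 2.50 to 5.34 per 100 kb; a region then needs both remaining lists. The share with no saline peak was 100% with −log10 q of at least 5 and of at least 10, and 95.5% to 100% across libraries left out, the last without saline replicate 2. Neither a reach of 0 or 50 kb nor the overlap rule moved these counts by 1.5 times. Of 153 values for single genes, 44 moved, 35 to lower and 9 to higher values, 12 of them to 0, all at Gria4. With −log10 q of at least 10, Gria1, Gria2 and Gria4 had 8, 2 and 0 regions, at percentiles of 97.1, 88.2 and 0 among long genes. A percentile of 0 is that of every long gene without a region, and Gria4 shared rank 1314 of 2428 with them. The percentiles were chosen after seeing the data. The best Gria4 rank could not be computed without kainic acid replicates 2 or 3 or among regions in all 3 lists, since no region was left. No single result changed sign, but Gria2 was denser in regions than Gria1 without kainic acid replicate 2, without replicate 3 and with all 3 lists required.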
